A study of Mus musculus with 2 samples.

Results

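The transcripts of 8 genes of the SOX family, Sox4, Sox5, Sox6, Sox11, Sox12, Sox13, Sox17 and Sox18, were followed in the biliary and the endothelial-like cells of mouse liver samples labelled as biliary epithelial cells, the cells that line the bile ducts. The genes were chosen by name and are 8 of the 20 SOX genes and of the 55415 genes in the gene table. Single cells were profiled in 2 libraries, 1 with the genotype label Sox9cKO and 1 with the genotype label Sox9con, and the series describes the former as deficient in Sox9 and the latter as its control. The labels give no age, sex, allele, Cre driver or number of animals for either library, and neither carries a named treatment. The study's stated aim was to cluster the cells and compare gene expression between both samples. With 1 library per genotype label no test is possible, and all intervals are 95% and cover counting error only.

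SOX proteins are transcription factors that bind DNA through a shared HMG box and are grouped by its sequence. Sox4, Sox11 and Sox12 form the SOXC group, known from progenitor cells and epithelial development. Sox5, Sox6 and Sox13 form the SOXD group, which has a coiled coil for dimerization and no known activation domain, and Sox5 and Sox6 are the known partners of Sox9 in cartilage. Sox17 and Sox18 belong with Sox7 to the SOXF group of the vascular endothelium, and Sox17 also acts in endoderm and in the development of the extrahepatic bile duct and gallbladder. Sox9 marks bile duct cells of the liver, and Sox4 is known to act alongside it in bile duct development.

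The 250 bases upstream of the annotated start are shown for Sox4 and Sox5, the members detected in the most biliary cells. The sequences are RefSeq's, on build GRCm38.p6, while the counts were made on GRCm39, and 6 of the 8 members had an entry. Sox4 starts on the minus strand of chromosome 13 and its window is chr13:28953700-28953949. The Sox5 window lies on the minus strand at chr6:143947107-143947356. Capitals mark matches to the SOX core hexamers ACAAAG and ACAATG, searched on both strands.

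Sox4: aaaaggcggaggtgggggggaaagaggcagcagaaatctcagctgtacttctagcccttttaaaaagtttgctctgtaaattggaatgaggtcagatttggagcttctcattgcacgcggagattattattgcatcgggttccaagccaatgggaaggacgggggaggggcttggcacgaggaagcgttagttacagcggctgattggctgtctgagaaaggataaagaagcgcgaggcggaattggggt

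Sox5: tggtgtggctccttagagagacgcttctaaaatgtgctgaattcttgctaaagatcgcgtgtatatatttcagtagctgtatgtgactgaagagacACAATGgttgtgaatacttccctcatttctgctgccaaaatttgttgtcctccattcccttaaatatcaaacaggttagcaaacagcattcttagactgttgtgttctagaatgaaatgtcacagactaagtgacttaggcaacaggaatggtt

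The Sox4 window holds 0 matches and the Sox5 window holds 1, an ACAATG on the strand shown. Among all 32851 RefSeq mouse promoters of the same length, 25.2% held a match, so that neither window stands out from the others by this count. A match is a description of the letters and no evidence of binding. The Sox4 window has 50.8% G and C and the Sox5 window 39.6%, beside a median of 52.4% over all promoters.

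Before filtering, the library labelled Sox9cKO held 2740 cells with 14856321 transcripts (UMIs, each counted once by its molecular identifier) and the library labelled Sox9con 3622 cells with 12811243. Biliary cells numbered 2591 and 3363 after filtering, with a median of 5124 and 3224 UMIs per cell. All 14 biliary markers, among them Epcam and Krt19, reached 50 CPM (a gene's UMIs scaled to the total of the class) in the biliary cells of both libraries. Endothelial-like cells were those with at least 5 UMIs over Ptprb, Stab2, Kdr and Flt1, and numbered 84 and 120, with median depths of 2593.5 and 2419 UMIs. All 12 endothelial markers outside that rule, Pecam1, Cdh5 and Tek among them, reached 50 CPM in these cells, and summed to 7502 and 7993 CPM against 43.8 and 63.2 CPM in the biliary cells. Of the 204 endothelial-like cells, 192 lay in the endothelial cluster and 10 in biliary clusters, and 11 of the 14 biliary markers reached 50 CPM over the endothelial-like cells of each library. Cells of each library came from first-round barcoding wells of their own, 5 for Sox9cKO and 4 for Sox9con, so wells and genotype labels cannot be told apart. The labels do not say how the wells of a library were filled, and here they serve as a technical spread and not as biological replicates.

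Sox9 itself was measured first, because it is the gene the libraries are labelled by. Its level in biliary cells was 122 CPM (116 to 128, 1742 UMIs) in the library labelled Sox9cKO and 146 CPM (139 to 153, 1770 UMIs) in the library labelled Sox9con. The log2 ratio was -0.26 (-0.35 to -0.16), and it was above 0 in 10 of the 20 possible pairings of wells across the libraries. At an equal mix of the biliary clusters present in both libraries it turned to 0.11, and without well D9 to 0.15. Well D9 of the library labelled Sox9con stood at 221 CPM, and its other wells at 92.2, 74.3 and 154 CPM, so the wells of that library spread on both sides of the Sox9cKO wells at 101 to 146 CPM. Whole-gene counts do not show whether a deleted exon is missing, and the labels do not say which part of the gene was deleted. The direction of any difference between these libraries is therefore given for the labels as they stand.

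In biliary cells 2 members were abundant, Sox5 and Sox4, 2 were low, Sox6 and Sox13, and 4 were at or near the limit of detection. Sox5 stood at 638 CPM (625 to 652) in the library labelled Sox9cKO and 569 CPM (556 to 583) in the library labelled Sox9con. Sox4 followed with 325 CPM (315 to 334) and 292 CPM (283 to 302). Per kilobase of exon, Sox4 was first with 67.7 and 60.9 CPM per kb, Sox5 second with 44.4 and 39.6, and Sox9 came next with 29.5 and 35.2. The long Sox5 gene thus loses its lead on the per-length scale, which uses GENCODE exons of build GRCm38. Whether reads from introns were counted is not given in the sources used here. Sox6 reached 3.02 and 4.34 CPM per kb and Sox13 2.27 and 3.07, so that the order Sox4, Sox5, Sox9, Sox6, Sox13 was the same in both libraries, with Sox6 and Sox13 next to each other.

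At their own depth, a Sox5 UMI was found in 69.4% of biliary cells of the library labelled Sox9cKO and 59.9% of the library labelled Sox9con, and a Sox4 UMI in 50.8% and 42.6%. The libraries differ in depth, so shares are compared after thinning every cell to 2000 UMIs, which leaves out 139 and 565 shallower cells. Sox5 was then detected in 53.6% (51.6 to 55.6) and 50.8% (49.0 to 52.7) of cells, and Sox4 in 34.7% (32.8 to 36.6) and 32.6% (30.9 to 34.4). At matched depth the intervals of both genes overlap between the libraries. Sox6 was detected in 7.34% (6.34 to 8.45) and 10.2% (9.09 to 11.4), and these intervals lie apart. No share over all genes was computed for this measure, so it is given as a description only. At least 1 of the 8 members was detected at 2000 UMIs in 71.2% (69.3 to 73.0) of biliary cells of the library labelled Sox9cKO and 68.8% (67.0 to 70.5) of the other. Sox4 and Sox5 were found together in 19.3% and 17.8% of cells. For comparison, at 2000 UMIs a Sox5 UMI was found in 10.3% (3.89 to 21.2) and 10.5% (4.66 to 19.7) of endothelial-like cells, where biliary markers were also detected.

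Sox4, a SOXC factor of progenitor and epithelial cells, was measured at 393, 289, 400, 274 and 301 CPM in the Sox9cKO wells A11, A12, B1, B2 and B3. In the Sox9con wells D9, D10, D11 and D12 it stood at 249, 317, 334 and 292 CPM. The wells of both libraries overlap, with A11 and B1 above all others and D9 below all others. The log2 ratio of the library labelled Sox9cKO over the library labelled Sox9con was 0.15 (0.09 to 0.22), and 12 of the 20 well pairs were above 0.

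Sox5, the SOXD factor, was measured at 661, 634, 667, 593 and 646 CPM in the 5 Sox9cKO wells and at 630, 555, 516 and 543 CPM in the 4 Sox9con wells, in the same order of wells. Only B2 and D9 bring the libraries to overlap. Its log2 ratio was 0.17 (0.12 to 0.21), above 0 in 19 of 20 well pairs. All 8 sublibraries, read here from the suffix of the cell barcodes and each holding cells of both libraries, had a ratio above 0. That difference did not hold at an equal mix of the biliary clusters present in both libraries, where it was -0.06.

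Sox6, the other partner of Sox9 in cartilage, was lower in every well of the library labelled Sox9cKO than in any well of the library labelled Sox9con. Its level was 45.5, 45.5, 36.8, 48.0 and 47.7 CPM in the Sox9cKO wells and 68.9, 63.9, 56.9 and 64.4 CPM in the Sox9con wells. The log2 ratio was -0.52 (-0.68 to -0.37), below 0 in every one of the 20 pairs and 8 sublibraries. Among the 9311 genes with at least 200 UMIs, 15.9% had wells that did not overlap between the libraries. At an equal mix of shared clusters the Sox6 ratio shrank to -0.15.

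Sox13, the remaining SOXD gene, stood at 8.54, 7.40, 7.82, 14.8 and 10.8 CPM in the Sox9cKO wells and at 14.1, 8.67, 9.88 and 19.3 CPM in the Sox9con wells. Its wells overlap, its log2 ratio was -0.43 (-0.77 to -0.10), and 5 of 20 pairs were above 0. Sox4, Sox5, Sox6 and Sox13 were the 4 of 8 members with at least 200 UMIs over the biliary cells. None of these 4 differed 2-fold or more between the libraries, where 3.91% of the 9311 genes did, 2.17% higher and 1.74% lower in the library labelled Sox9cKO. Without well D9, the count of genes at least 2-fold lower rises from 162 to 385, and the count of these members stays at 0.

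**Figure D1:**
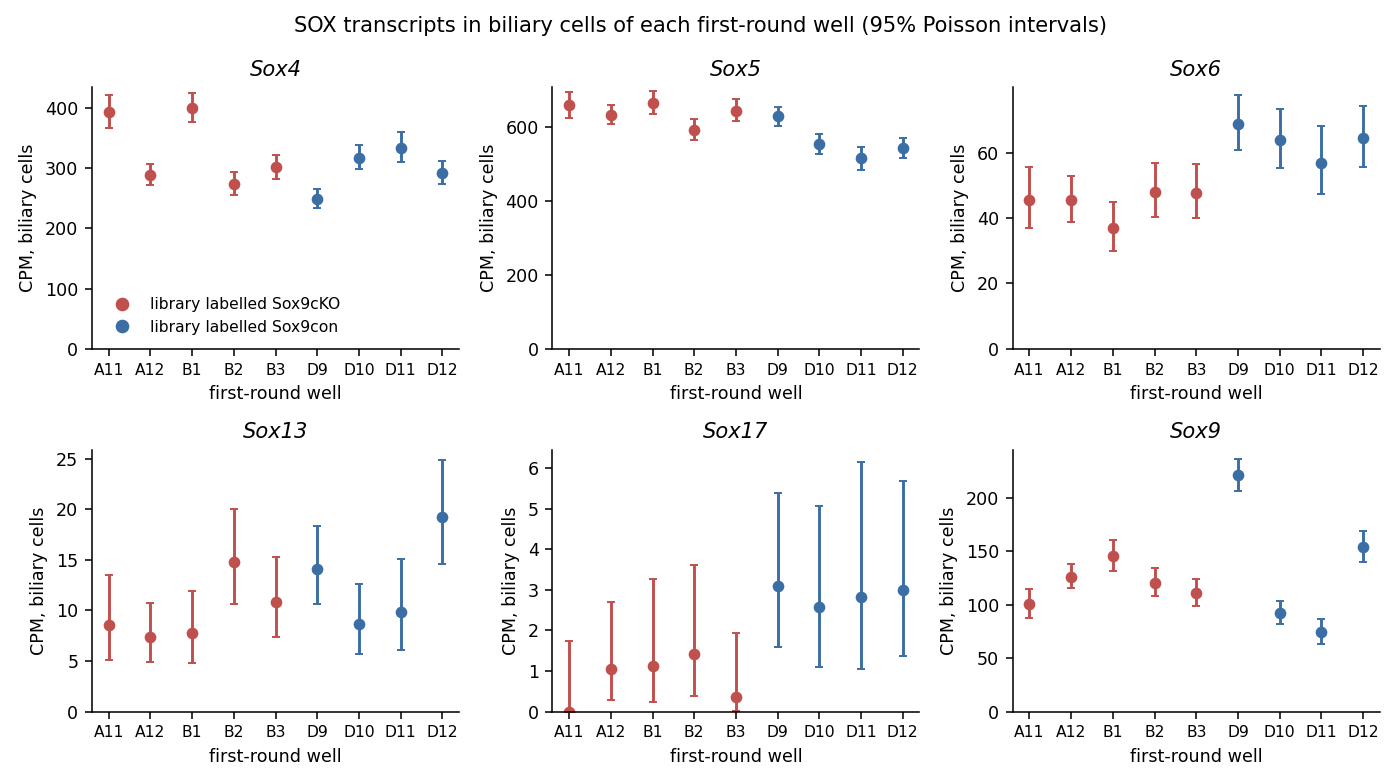
Level in biliary cells (CPM, vertical axis) of 5 members and Sox9 in each first-round well (horizontal axis), with 95% Poisson intervals, red for wells of the library labelled Sox9cKO and blue for Sox9con. The Sox6 wells of the library labelled Sox9cKO, at 36.8 to 48.0 CPM, lie below those of the other library, at 56.9 to 68.9 CPM, while the wells of Sox4, Sox5, Sox13 and Sox9 overlap.

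The other members were rare in biliary cells. Sox11, a SOXC gene of developing tissues, had 22 and 10 UMIs (1.54 and 0.823 CPM), and Sox12, the last of that group, 12 and 9 (0.840 and 0.741 CPM). Sox17 had 12 UMIs (0.840 CPM) in the library labelled Sox9cKO and 35 (2.88 CPM) in the library labelled Sox9con. By well, Sox17 counted 0, 4, 3, 4 and 1 UMIs in A11 to B3 and 12, 8, 6 and 9 in D9 to D12, and its CPM did not overlap between the libraries. The counting intervals of single wells do overlap, such as 0.230 to 3.26 CPM in B1 and 1.11 to 5.06 CPM in D10. The share of 15.9% with wells apart covers genes with at least 200 UMIs, so no share over genes as low as Sox17 is given. The log2 ratio of -1.73 (-2.86 to -0.80) rests on 47 UMIs, under the minimum of 200. No UMI of Sox18 was found in 2591 and 3363 biliary cells, which allows a share of up to 0.116% and 0.0892% of cells with a UMI and a level of up to 0.210 and 0.247 CPM.

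Sox4, Sox5, Sox6 and Sox13 spanned wider ranges over the biliary clusters than over the libraries, where the larger level was 1.11, 1.12, 1.44 and 1.35 times the smaller. The highest cluster stood at 3.27, 25.5, 9.80 and 2.88 times the lowest, as extremes of 6 clusters against 2 libraries. Clustering was done without any SOX gene, and gave 6 biliary clusters, named here by number and leading genes. They were cluster 0 (Slit3, Ptgs2), cluster 1 (Gc, Hp, Inhba), cluster 2 (Muc6, Igfbp5), cluster 3 (Hilpda, Kcnn4, Spp1), cluster 4 (Muc4, Adgrg7) and cluster 7 (Ankrd1, Adgrv1). The biliary cells of the library labelled Sox9cKO lay mostly in clusters 2, 0 and 1 (36.4%, 29.9% and 21.6%), those of the library labelled Sox9con in clusters 3, 2 and 7 (39.3%, 28.5% and 25.8%). Clusters 0 and 1 hold 15 and 2 biliary cells of the library labelled Sox9con, so they cannot be told apart from the library. Each library had 100 or more cells in clusters 2, 3, 4 and 7, which are called shared.

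Among the 4 members with at least 200 UMIs, Sox5 had the widest range over the biliary clusters. It was highest at 1203 CPM in cluster 1 and lowest at 47.2 CPM in cluster 4, a ratio of 25.5. Among cells of the library labelled Sox9con, few of which lie in cluster 1, it ran from 1209 CPM in cluster 7 to 22.9 CPM in cluster 4. Cells of the Ankrd1 cluster and of the Muc4 cluster therefore stand at opposite ends for this gene in the same library. Sox6 ran from 162 CPM in cluster 7 to 16.5 CPM in cluster 4, a ratio of 9.80, and Sox4 from 487 CPM in cluster 7 to 149 CPM in cluster 4, a ratio of 3.27. Sox9 took the same ends, with 237 CPM in cluster 7 and 87.9 CPM in cluster 4. These are values over both libraries, which fill the clusters unequally. Within the library labelled Sox9cKO the highest level was in cluster 1 for Sox4 (473 CPM) and in cluster 3 for Sox9 (182 CPM), and the lowest was in cluster 4 for both. Sox13 went the other way, with its highest level of 27.1 CPM in cluster 4 and its lowest of 9.43 CPM in cluster 1, from 46 and 35 UMIs.

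Inside the shared clusters the libraries differed in Sox5 in both directions. In cluster 2 it stood at 225 CPM in the library labelled Sox9cKO and 181 CPM in the library labelled Sox9con, a log2 ratio of 0.31 (0.17 to 0.45), and in cluster 4 at 82.3 and 22.9 CPM, a ratio of 1.82 (1.12 to 2.61). In cluster 3 it stood at 477 and 620 CPM, -0.38 (-0.62 to -0.15), and in cluster 7 at 837 and 1209 CPM, -0.53 (-0.71 to -0.35). Among these shared clusters, Sox5 was thus higher in the library labelled Sox9cKO in clusters 2 and 4, where the gene is low. It was lower in that library in clusters 3 and 7, where the gene is higher and where that library has 100 biliary cells each. Clusters 0 and 1 are outside this comparison, and there Sox5 stood at 703 and 1206 CPM in the library labelled Sox9cKO. Sox6 stood at 22.1 and 21.9 CPM in cluster 2, 47.7 and 46.9 CPM in cluster 3 and 141 and 164 CPM in cluster 7, with intervals of the ratio that include 0 in each. In cluster 4 it stood at 8.66 CPM (6 UMIs) and 21.9 CPM (22 UMIs), a log2 ratio of -1.28 (-2.93 to 0.0057), the lowest of the 4. Cluster 7, where Sox6 was highest, held 3.86% of the biliary cells of the library labelled Sox9cKO and 25.8% of those of the library labelled Sox9con. Sox4 had an interval above 0 only in cluster 3, at 0.46 (0.11 to 0.79), from 81 and 780 UMIs.

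**Figure D2:**
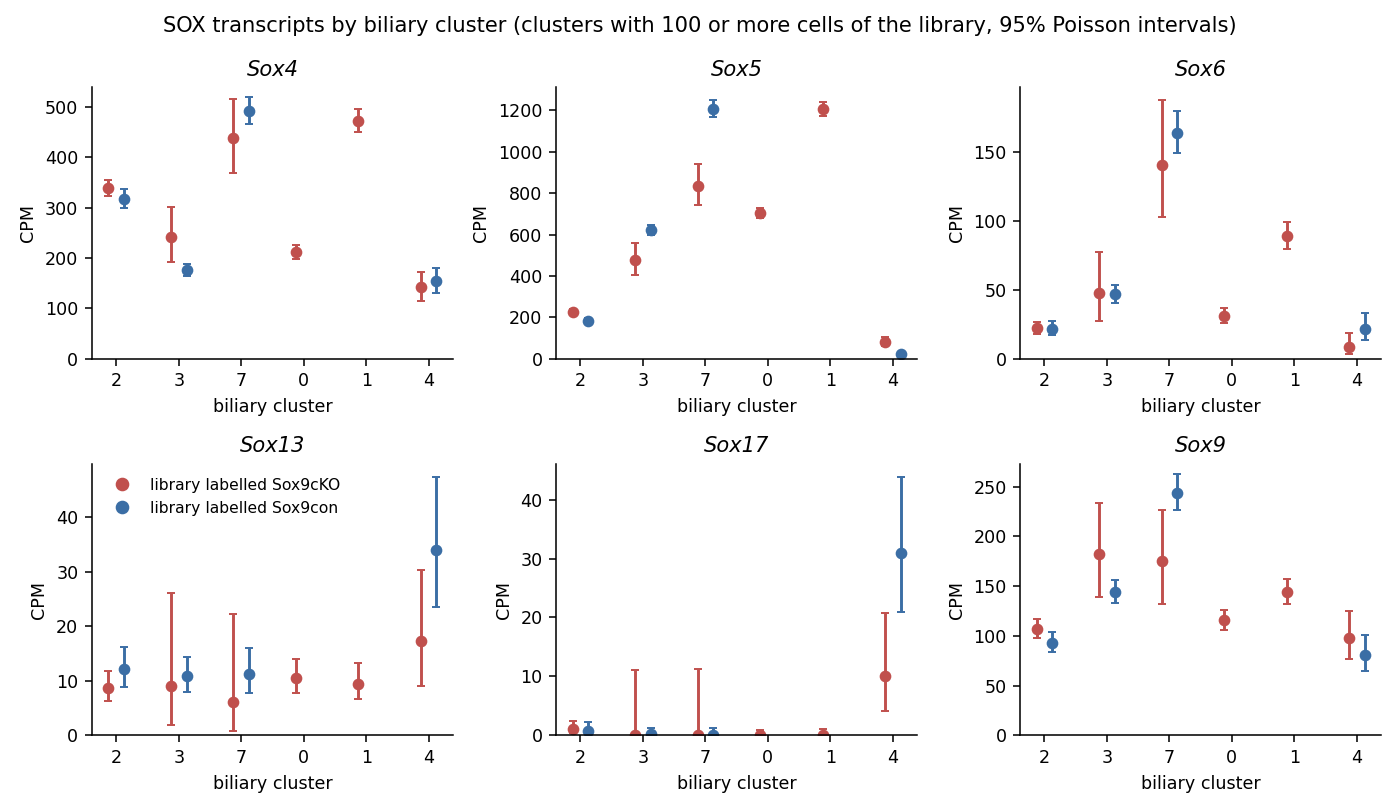
Level (CPM, vertical axis) of 5 members and Sox9 by biliary cluster (horizontal axis), for each library with at least 100 cells in the cluster, with 95% Poisson intervals. Sox4, Sox5, Sox6 and Sox9 are high in cluster 7 and low in cluster 4, and Sox13 and Sox17 have their highest level in cluster 4.

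Sox17 in biliary cells was concentrated in the Muc4 cluster, a breakdown made after its values were seen. A Sox17 UMI was found in 37 biliary cells, of which 28 lay in cluster 4, which holds 5.31% of biliary cells and 6.42% of their UMIs. In that cluster 5 of 114 cells (4.39%, 1.44 to 9.94) of the library labelled Sox9cKO and 23 of 202 cells (11.4%, 7.36 to 16.6) of the library labelled Sox9con had a Sox17 UMI. Outside it the shares were 0.202% (0.0656 to 0.470) and 0.127% (0.0345 to 0.324), so the intervals of the Muc4 cluster and of the other biliary clusters lie apart in each library. Within the Muc4 cluster the intervals of these shares overlap between the libraries, while the levels were 10.1 CPM (7 UMIs) in the library labelled Sox9cKO and 30.9 CPM (31 UMIs) in the other, a log2 ratio of -1.56 (-3.04 to -0.40) that excludes 0. The Sox17-detected cells came from 8 of 9 wells and 8 of 8 sublibraries, 8 of them had at least 2 Sox17 UMIs, and the highest count was 4. Of the 37 cells, 36 had 0 UMIs of the 4 endothelial genes, and all 37 together had 16 UMIs of the 12 other endothelial markers. Their median depth was 6025 UMIs, beside 5189 in the cluster.

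Muc4 and Anxa10 in the Sox17-detected cells of the Muc4 cluster were compared with the other cells of the cluster. Muc4, a membrane mucin that leads the cluster and so had to be high in it, stood in the library labelled Sox9con at 956 CPM (804 to 1130) in the 23 Sox17-detected cells, 776 CPM (718 to 837) in the other 179 cells of the cluster and 33.6 CPM (30.2 to 37.1) in the other biliary clusters. Anxa10, an annexin known from gastric epithelium, stood at 152, 127 and 4.04 CPM in the same order. Muc6, a gland mucin, had 0 UMIs in the cluster and 76.0 CPM in the other biliary clusters of that library. Muc4 in the library labelled Sox9cKO was lower in the 5 Sox17-detected cells, at 670 CPM (452 to 957), than in the other 109, at 1792 CPM (1690 to 1898), and Anxa10 had 0 UMIs in those 5. Flt1, 1 of the 4 endothelial genes, stood at 55.6 CPM in those 109 cells against 3.09 CPM in the other biliary clusters of that library, while Stab2 had 0 UMIs in them and Kdr 3.

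**Figure D3:**
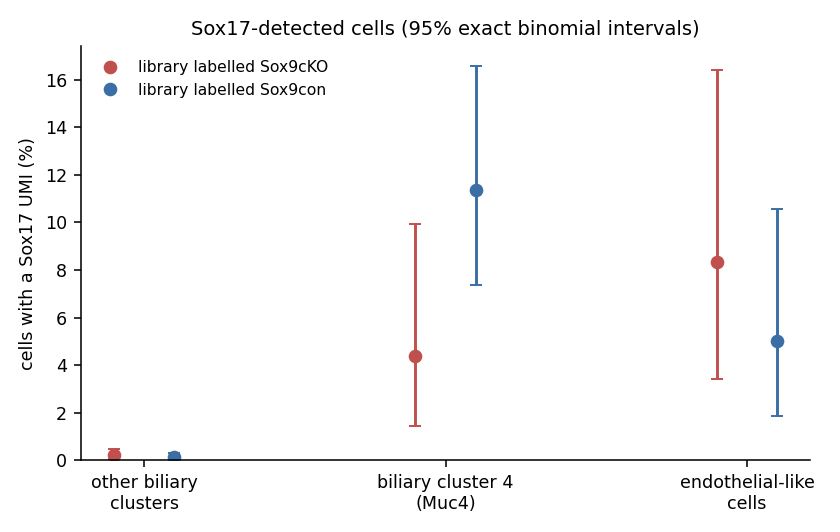
Share of cells with a Sox17 UMI (percent, vertical axis) in the biliary clusters other than cluster 4, in biliary cluster 4 and in endothelial-like cells, by library, with 95% exact binomial intervals and without thinning. The Muc4 cluster, at 4.39% and 11.4%, lies above the other biliary clusters, at 0.202% and 0.127%, and its intervals overlap those of the endothelial-like cells.

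In endothelial-like cells the SOXF genes stood higher and Sox5 lower than in biliary cells. Sox18, a factor of blood and lymph vessel endothelium, was measured at 24.3 CPM (9.77 to 50.1, 7 UMIs) in the library labelled Sox9cKO and 28.8 CPM (14.4 to 51.5, 11 UMIs) in the library labelled Sox9con. With 0 UMIs in biliary cells no ratio is given, and the lower limits of the interval of the log2 ratio were 6.16 and 6.32. Without 1 cell of over 15000 UMIs, the level in the library labelled Sox9cKO was 18.4 CPM (5 UMIs). Over both libraries and all kept cells, every one of its 18 UMIs fell in the 204 cells with 5 or more endothelial UMIs, 15 of which had one, and none in the 5738 cells with 0, the 212 with 1 or the 54 with 2 to 4. Sox17 stood at 31.3 CPM (9 UMIs) and 20.9 CPM (8 UMIs), log2 ratios over biliary cells of 5.11 (3.79 to 6.59) and 2.83 (1.54 to 3.99). The smaller Sox17 ratio belongs to the library with more Sox17 in its biliary Muc4 cluster. Both genes are under the minimum of 200 UMIs, so they are given as values and not counted as apart.

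Sox7, the remaining SOXF gene, was by far the most abundant of the 3, with 198 CPM (57 UMIs) and 181 CPM (69 UMIs). Per kilobase of exon the order in endothelial-like cells of the library labelled Sox9cKO was Sox7 at 60.01, Sox4 at 44.2, Sox18 at 15.01 and Sox9 at 7.56 CPM per kb, ahead of Sox17 at 6.55. The order in the library labelled Sox9con was Sox7 at 54.7, Sox4 at 23.5, Sox18 at 17.8 and Sox5 at 7.65 CPM per kb. By these point values Sox7, Sox4 and Sox18 led in the same order in both libraries. No intervals were computed per kilobase, and Sox18 rests on 7 and 11 UMIs, so its place is uncertain. Sox5, Sox9, Sox13 and Sox17, all between 4.39 and 7.65 CPM per kb, cannot be ranked at these counts.

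Sox5 was lower in endothelial-like than in biliary cells by 2.77 and 2.37 on the log2 scale, with intervals of -3.37 to -2.23 and -2.85 to -1.94. Among Sox4, Sox5, Sox6 and Sox13, which had 200 UMIs over both classes, it was at least 2-fold apart in the same direction in both libraries and the others were not. Over all 9471 genes with that minimum, 9.57% were higher and 17.9% lower in endothelial-like cells. These members pass the minimum through their biliary UMIs, and with 204 endothelial-like cells a gene high only there seldom can, so the count of 1 is set in part by the minimum. With no minimum 5 members were apart, Sox5 lower and Sox11, Sox12, Sox17 and Sox18 higher. The counts over all genes at that setting are given with the alternatives below. Sox12 rests there on 1 and 1 endothelial-like UMIs, and its intervals of -3.37 to 4.80 and -3.63 to 4.67 include 0. Sox11 rests on 2 in the library labelled Sox9con, where its interval of -0.56 to 4.90 includes 0. The Sox5 level in endothelial-like cells that lay in the endothelial cluster was 11.01% and 14.5% of the biliary level. The 14 biliary markers had a median of 9.63% (range 0 to 29.5) and 11.4% (range 6.44 to 16.3) in the same cells. The remaining Sox5 level thus lay inside the range of the biliary markers and above their median in both libraries. Whether these UMIs come from the endothelial-like cells themselves was not tested. Sox9 stood at 16.95% and 9.73% there, inside the same range.

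Sox4 did not follow that pattern. It was lower in endothelial-like cells by 0.62 (interval -1.004 to -0.25) and 1.38 (-1.84 to -0.94) on the log2 scale, with 212 CPM and 113 CPM. In endothelial-like cells of the endothelial cluster it kept 68.8% and 36.9% of its biliary level, above the highest of the 14 biliary markers in each library. Endothelial-like wells held 15 to 36 cells and ran from 156 to 347 CPM of Sox4 in the library labelled Sox9cKO and from 56.0 to 169 CPM in the library labelled Sox9con, so the wells overlap. Sox13 was higher in endothelial-like cells, by 1.497 (0.26 to 2.52) and 0.83 (-0.33 to 1.79), from 8 and 9 UMIs, and the second interval includes 0. Sox11 had 9 and 2 UMIs there (31.3 and 5.23 CPM), log2 ratios of 4.28 (3.04 to 5.52) and 2.56 (-0.56 to 4.90), and Sox12 had 1 and 1. Summed over 6 cycling genes, endothelial-like cells stood at 486 and 400 CPM against 33.1 and 42.2 CPM in biliary cells, and their part in the Sox11 value was not tested.

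Single cells weighed on several of these values. Sox6 had 1 UMI in the endothelial-like cells of the library labelled Sox9cKO and 13 in those of the library labelled Sox9con, log2 ratios of -3.66 and -0.92, and 5 of the 13 came from 1 cell of well D9. That cell held 44473 UMIs, 11.6% of all UMIs of its class, and also 17 of the 69 Sox7, 3 of the 9 Sox13 and 2 of the 8 Sox17 UMIs. Of the 9 Sox11 UMIs of the library labelled Sox9cKO, 4 came from 1 cell. A second cell over 15000 UMIs, in well A12, held 10 of the 57 Sox7 UMIs and 2 of the 7 Sox18 UMIs of the library labelled Sox9cKO. Without these cells, chosen after their depth was seen, Sox6 was lower by 1.44 in the library labelled Sox9con, which brings it past 2-fold in both libraries. Sox7 then stood at 173 and 154 CPM and Sox13 in the library labelled Sox9con at a log2 ratio of 0.42.

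**Figure D4:**
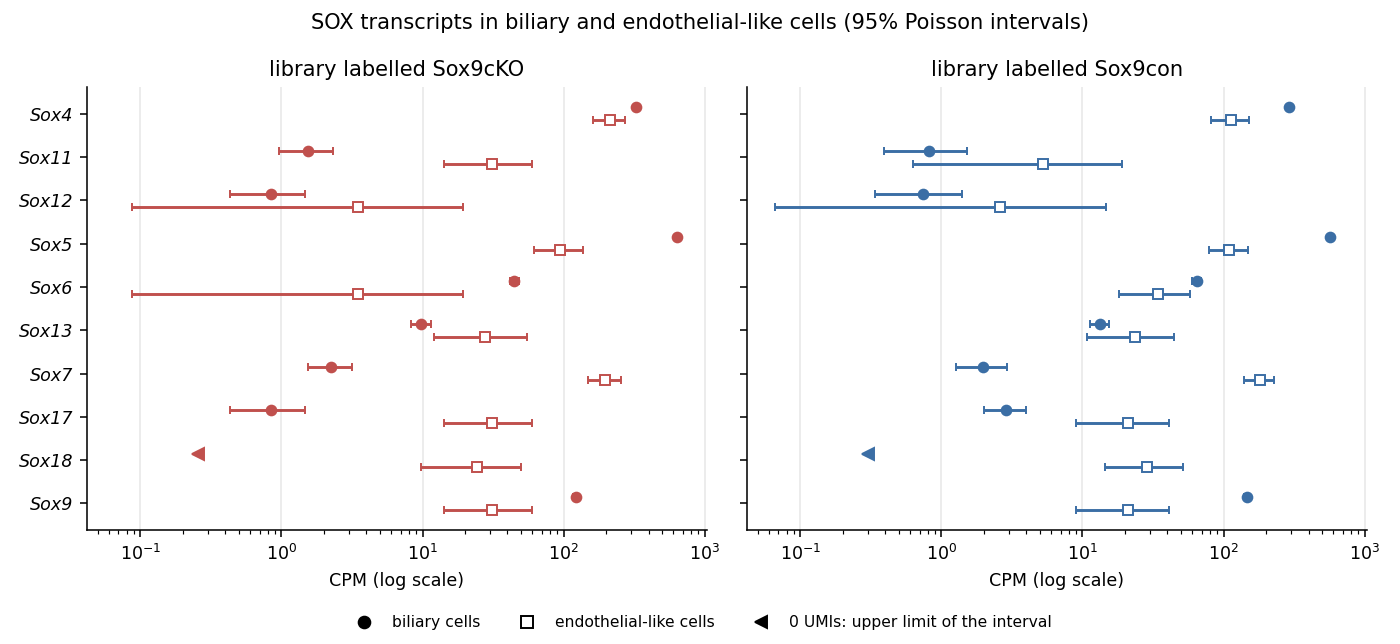
Level (CPM on a log axis, horizontal) of the 8 members, Sox7 and Sox9 in biliary cells (filled circles) and endothelial-like cells (open squares) of each library, with 95% Poisson intervals and triangles for the upper limit at 0 UMIs. Sox5 and Sox9 lie to the left in endothelial-like cells, and Sox7, Sox17 and Sox18 lie to the right.

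Detection of the SOXF genes was also counted cell by cell. Of 204 endothelial-like cells, 68 had a Sox7 UMI, 13 a Sox17 UMI, 15 a Sox18 UMI and 86 at least 1 of the 3. Sox17 and Sox18 were found together in 1 cell, Sox7 with Sox17 in 6 and Sox7 with Sox18 in 3, counts too small to say whether the genes go together or apart. Lists of vessel genes were summed in cells with and without each gene, over both libraries and without the 2 cells over 15000 UMIs. A list of 10 sinusoidal genes (Stab1, Lyve1, Mrc1 and others) stood at 10707 CPM (9788 to 11689) in the 14 Sox18-detected cells and 7043 CPM (6826 to 7266) in the other 188. The same list stood at 5071 CPM (4465 to 5736) in the 12 Sox17-detected cells and 7524 CPM (7298 to 7754) in the other 190. A list of 10 arterial and venous genes (Mecom, Efnb2, Gja5, Gja4, Vwf and others) stood at 802 CPM (573 to 1092) and 530 CPM (472 to 594) in those with and without Sox17. Mecom had the most UMIs of that list in the endothelial-like cells of each library (121 and 149), followed by Efnb2 (35 and 69). Mecom is also 1 of the 12 endothelial markers, and Efnb2 was not higher there than in biliary cells, so the sum does not separate vessel types. These sums pool both libraries and rest on few cells.

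The deep cells weigh on these sums. With them, the arterial and venous list stood at 2310 CPM in Sox17-detected cells and 568 CPM in the others, because the D9 cell alone held 178 UMIs of the list. For each library apart, the sinusoidal contrasts were computed only with the deep cells kept. With the deep cells kept, the list stood at 12124 CPM against 7048 CPM in the library labelled Sox9con and at 3961 CPM against 5846 CPM in the library labelled Sox9cKO, from 10 and 5 Sox18-detected cells. In Sox17-detected cells it stood at 1769 CPM against 8694 CPM in the library labelled Sox9con and at 5280 CPM (4441 to 6230) against 5681 CPM (5396 to 5977) in the library labelled Sox9cKO, from 6 and 7 Sox17-detected cells, and the intervals of the latter overlap. With these cells kept, the Sox18 contrast had opposite directions in the libraries, and the Sox17 contrast lay apart in the library labelled Sox9con only. The A12 cell, with 15536 UMIs and 3 of the list, was 1 of the 5 Sox18-detected cells, which held 122 of the list. The D9 cell, with 44473 UMIs and 7 of the list, was 1 of the 6 Sox17-detected cells, which held 120. Both cells lower the value of their group, and whether these directions hold without them was not computed. Sox4-detected cells had less of the sinusoidal list, 5799 CPM (5453 to 6161) against 7966 CPM (7702 to 8238), and more of the arterial and venous list, 801 CPM (676 to 942) against 448 CPM (387 to 516), without the deep cells. None of these contrasts is at matched depth. Without the deep cells, detected and other cells had median depths of 3359 and 2275 UMIs for Sox4, 3400 and 2406.5 for Sox17, and 3324 and 2359 for Sox18.

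Co-detection with Sox9 was compared among biliary cells thinned to 2000 UMIs, of which 19.7% and 20.3% had a Sox9 UMI. In the library labelled Sox9con, Sox5 was found in 59.5% (55.3 to 63.6) of the 568 Sox9-detected cells and 48.6% (46.5 to 50.7) of the 2230 Sox9-zero cells, 10.9 points apart. In the library labelled Sox9cKO it was found in 57.0% (52.5 to 61.5) of 484 and 52.8% (50.6 to 55.0) of 1968 cells, and the intervals overlap. Sox4 was found in 38.7% (34.7 to 42.9) against 31.0% (29.1 to 33.0) of cells in the library labelled Sox9con and 33.7% against 35.0% in the library labelled Sox9cKO. By this single random draw 2 of 8 members had intervals apart in the library labelled Sox9con and 0 of 8 in the library labelled Sox9cKO. Among all genes tested, 2.1% were higher and 3.32% lower in Sox9-detected cells with intervals apart in the former, and 0.703% and 0.867% in the latter.

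Repeating the thinning separated Sox5 from Sox4. Over 20 further draws, Sox5 in the library labelled Sox9con averaged 61.8% in Sox9-detected and 47.0% in Sox9-zero cells, a difference of 14.7 points (12.3 to 17.5 over the draws), with intervals apart in 20 of 20. The Sox4 difference in that library averaged 2.46 points (-1.01 to 6.78), with intervals apart in 2 of 20, so the first draw lay outside the range of the others for both genes, below it for Sox5 and above it for Sox4. The Sox5 difference in the library labelled Sox9cKO averaged 4.73 points (0.31 to 10.03), with intervals apart in 4 of 20, and the Sox4 difference -2.42 points, with 0 of 20. Sox6 in the library labelled Sox9con averaged 2.93 points (0.46 to 4.99), with 4 of 20. No other member had intervals apart in any draw of either library.

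The Sox5 difference held in each well of the library labelled Sox9con and shrank within its clusters. By well the mean difference ran from 11.7 points in D9 to 18.3 points in D11. Within the 4 clusters with at least 100 thinned cells it ran from 1.24 to 5.86 points, 4.27 points when weighted by cells, and was above 0 in 4 of 4, with intervals apart in at most 3 of 20 draws in any cluster. The share of Sox9-detected cells itself ran from 10.6% in cluster 4 to 31.6% in cluster 7, the clusters where Sox5 was lowest and highest in that library. In the library labelled Sox9cKO the mean difference was above 0 in 4 of 5 wells, from -5.03 points in A12 to 13.3 points in A11, and the weighted value within clusters was 1.27 points. In the first draw, 0 of 8 combinations of cluster and library had intervals apart for any member.

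**Figure D5:**
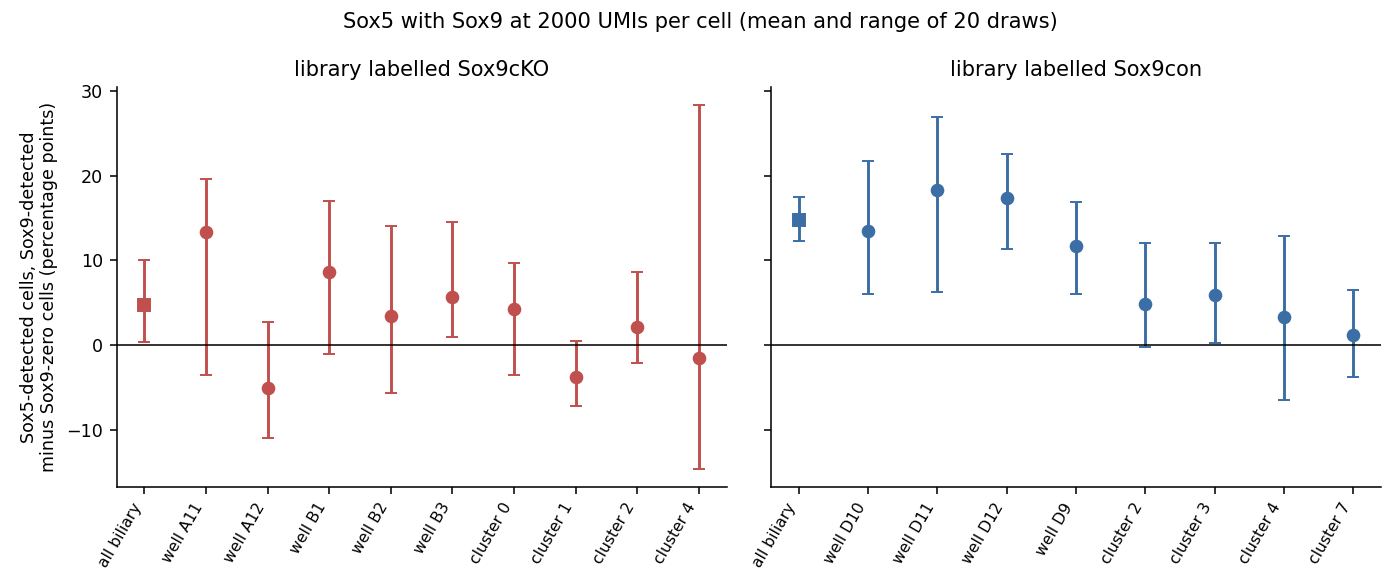
Share of Sox5-detected cells among Sox9-detected minus that among Sox9-zero biliary cells (percentage points, vertical axis) at 2000 UMIs per cell, over all biliary cells (square) and within each well and each cluster of at least 100 thinned cells (circles), as the mean and range of 20 draws. In the library labelled Sox9con the wells lie between 11.7 and 18.3 points and the clusters between 1.24 and 5.86 points.

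The 11 SOX genes besides the members and Sox9 were mostly at or near 0. Of these, 5 had 0 UMIs (Sry, Sox1, Sox2, Sox3 and Sox14), 4 had between 1 and 19, and 2 had at least 20, Sox7 with 182 and Sox21 with 28. Sox21, a factor known from neural and epithelial tissues, had 17 and 11 UMIs in biliary cells and 0 in endothelial-like cells. Transcripts annotated on the opposite strand or inside Sox5 and Sox6 had at most 21 UMIs each, and whether the counting used strand is not given in the sources used here.

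Genes that act with or under the members were described from lists. Of 8 cartilage genes that Sox9 activates with Sox5 and Sox6, such as Col2a1 and Acan, 0 reached 200 UMIs in biliary cells, and all 8 together had 73 and 94 UMIs. Of 10 genes linked to SOXF factors in endothelium, 6 passed the minimum. Cdh5, Egfl7 and Tek passed it through the endothelial-like cells, where they are high, and so are given as values only, with log2 ratios of endothelial-like over biliary cells of 10.25 and 9.70, 7.15 and 6.89, and 6.72 and 7.08. Of the other 3, which had 200 UMIs in biliary cells alone, Nrp1 was at least 2-fold higher in endothelial-like cells of both libraries (4.22 and 4.53), where 9.57% of genes were, Vcam1 at least 2-fold lower (-1.08 and -1.26), where 17.9% were, and Efnb2 neither. Vcam1, an adhesion molecule, stood at 2463 and 2234 CPM in the biliary cells themselves. Of the 12 genes of biliary differentiation, 12 passed, with 0 at least 2-fold apart between the libraries and a median of -0.08 beside -0.07 over all genes. Among these, 7 were at least 2-fold lower in endothelial-like cells, Onecut1 and Foxa1 among them, and 2 were higher, Hes1 and Yap1, beside 17.9% lower and 9.57% higher over all genes. All 12 reached the minimum in biliary cells alone, the class where those 7 are high. The count of 7 is therefore set in part by the minimum and is given as a description only. Of the 12 large-duct and gland genes, 10 passed the minimum between the libraries. Muc6 and Car4 were at least 2-fold lower in the library labelled Sox9cKO (log2 ratios of -1.62 and -1.43), where 1.74% of genes were. Ltf, which encodes lactoferrin, had 248 UMIs in the library labelled Sox9cKO and 13 in the library labelled Sox9con. It passed the minimum through the former, where it is high, so its log2 ratio of 3.97 is given as a value only. The median of the 10 was -0.17 beside -0.07 over all genes.

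Profiles over the 12 combinations of cluster and library with at least 30 cells were used to find the genes most like each member, as a description only, since the points share libraries and cells. For Sox5 these were Bmp6 (Pearson r of 0.98), Alb (0.97) and Abtb2 (0.97). For Sox4 they were Flnc (0.94), Ankrd1 (0.92) and Lzts3 (0.92), for Sox6 Fras1, Rhobtb3 and Plcl1 (0.96, 0.96 and 0.94), and for Sox13 Ctsa, Car8 and Rgp1 (0.93, 0.93 and 0.92). Among the members, Sox5 went with Sox6 (0.76) and Sox4 (0.71) and against Sox13 (-0.87). The 12 profiles include the endothelial cluster of each library (82 and 115 cells), so these correlations also hold its difference from the biliary clusters. Outside both classes, the 16 cells of the mesenchymal cluster had Sox5 at 1088 CPM (836 to 1392, 63 UMIs) and Sox6 at 242 CPM (132 to 406, 14 UMIs), and the 31 cells of an unnamed cluster led by Fyb and Dclk1 had Sox4 at 536 CPM (424 to 668, 79 UMIs).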

How the data were processed

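Single biliary epithelial cells of mouse liver were profiled with split-pool barcoding of fixed cells (Evercode Whole Transcriptome kit, random hexamer and oligo(dT) primers, per the labels' protocols). The authors deposited whole-number transcript counts (UMIs) for every gene in every cell, and tables of the cells and genes of each library. The cell table also holds a deposited signal, a transcript number per cell scaled by the authors, which was not analysed. The gene symbols are as deposited in the gene table, per the file headers. The genome is GRCm39, per the submitters' processing notes. The aligner, annotation release, cell calling and use of strand are not given in the sources used here.

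A cell needed 500 genes and 1000 UMIs or more, with no more than 15% of its UMIs mitochondrial, which removed 27 and 115 cells. Scrublet, through scanpy 1.11.5, marked 12 of 6220 cells (0.193%), too few for it to have worked. These were removed, and an alternative removed the top 5% of scores in each library. Both libraries were clustered together without SOX genes (2000 variable genes, 30 components, 15 neighbours, resolution 0.5). Clusters were named from marker lists at 50 CPM, and biliary cells are those of the clusters left after endothelial, mesenchymal and unnamed ones and cells with 5 or more endothelial UMIs were taken out. A further 50 kept cells are in neither class. No barcode was shared by the libraries.

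Counts were summed per library and class and scaled to CPM. Levels have exact Poisson intervals, shares exact Clopper-Pearson intervals and ratios exact conditional binomial intervals, with 0.5 counts added at the mean total. Upper limits for a count of 0 use 3 counts per library. All intervals cover counting error only. Genes with at least 200 UMIs over the groups compared entered counts at 2-fold. Co-detection used cells thinned to 2000 UMIs. The computation was tested on simulated counts. edgeR 4.0.16 (TMM) and DESeq2 1.42.0 were used only for scaling factors in alternatives, and other alternatives changed the cell filter, thinning, doublets, class rules, gene minimum and wells.

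The genes named are the 8 members, Sox9, other SOX genes with at least 20 UMIs, 6 gene lists and, for each member with 200 UMIs, the 3 genes with the most similar profile of log2(CPM + 5), and genes outside this rule were chosen after their values were seen. The members and lists were chosen with earlier results of these data known.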

Additional observations from a re-analysis of the deposited data

Results flagged for a closer look

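Among the 10 groups of first-round wells checked for a well far from the others, 1 stood out. Sox6 in biliary cells of the library labelled Sox9cKO was at 36.85 CPM in well B1 and at 45.5 to 48.0 CPM in its other 4 wells. The counting interval of B1, 29.9 to 44.9 CPM, overlaps that of each of the other 4 wells. Chance alone marks about 1 in 20 such groups.

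The Sox5 difference between the libraries went in opposite directions in the biliary clusters that both share. The log2 ratio of the library labelled Sox9cKO over the library labelled Sox9con was 0.314 in cluster 2 (Muc6) and 1.817 in cluster 4 (Muc4), and -0.378 in cluster 3 (Hilpda) and -0.530 in cluster 7 (Ankrd1). None of the 4 counting intervals includes 0. The difference between clusters was not tested, since each value compares 1 library with 1 library.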

How the results depend on the processing

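No paired analysis was possible because the labels carry no replicate numbers and each genotype label has 1 library. The equal mix of shared clusters, the rule cells in the endothelial cluster, those of at most 15000 UMIs and the mean of 20 draws were added after the data were seen. Over 18 alternatives, Sox4, Sox6, Sox11, Sox13 and Sox17 kept their direction between the libraries in 18, Sox9 and Sox12 in 16 and Sox5 in 17, the Sox5 exception being -0.06 at the equal mix. TMM and DESeq2 size factors shift every ratio between the libraries by 0.10 and 0.15, and ratios of endothelial-like over biliary cells by -0.19 and -0.06 (Sox9cKO) and by -0.16 and 0.03 (Sox9con). All members with 200 UMIs kept their direction under both.

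The count of members at least 2-fold apart between the libraries (0) became 1 (Sox17) with no gene minimum and stayed between 0 and 0 without each well. The 202 genes higher in the library labelled Sox9cKO became 108 with thinned cells, 3870 with no minimum and 61 at an equal mix, and 173 to 235 without each well. The 162 lower genes became 91 with DESeq2 size factors, 106 with thinned cells, 262 at a minimum of 100 UMIs and 4240 with no minimum, and 114 to 385 without each well, the highest without D9.

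Between endothelial-like and biliary cells the count of members (1, Sox5) became 2, with Sox6 added, under TMM, with thinned cells, without the top 5% of doublet scores, in the endothelial cluster, in rule cells of that cluster and in rule cells of at most 15000 UMIs. It became 2, with Sox13 added, under the stricter cell filter and at 3 or more UMIs, and 5 (Sox5, Sox11, Sox12, Sox17 and Sox18) with no minimum. The 906 higher genes became 551 with thinned cells and 2504 with no minimum, and the 1697 lower genes 7839 with no minimum and 1009 at 3 or more UMIs.

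For co-detection with Sox9 the 2 members with intervals apart (2 in Sox9con, 0 in Sox9cKO) became 1 in all and 1 in Sox9con at 1000 UMIs and over the mean of 20 draws, 0 in all and 0 in Sox9con within clusters, and 5 in all with 2 in Sox9cKO without thinning. The genes with intervals apart went from 96 to 53 at 1000 UMIs and 3622 without thinning in Sox9cKO, and from 366 to 215 and 3795 in Sox9con. Depth limits Sox11, Sox12, Sox17 and Sox18 to counts of 47 UMIs or fewer in the biliary cells of both libraries, and every endothelial-like value to 204 cells.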

Other observations

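Some features of the members fell outside the comparisons. The highest count in a single biliary cell was 42 UMIs for Sox4 and 38 for Sox5 in the library labelled Sox9cKO, and 26 and 36 in the library labelled Sox9con, while no biliary cell had more than 9 UMIs of Sox6 or 3 of Sox13. Sox5 was detected in 55.7% of Sox4-detected and 52.5% of Sox4-zero biliary cells at 2000 UMIs in the library labelled Sox9cKO, and in 54.7% and 48.9% in the library labelled Sox9con.

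In the endothelial-like cells, Sox5 UMIs were unevenly spread over the wells. Well A12 held 19 of the 27 in the library labelled Sox9cKO, and well D10 held 19 of the 42 in the library labelled Sox9con. Sox11, a SOXC gene, was found in 7 endothelial-like cells, 3 of which also had a Sox4 UMI. Sox7 had 32 and 24 UMIs in the biliary cells, the most of the SOXF genes there in the library labelled Sox9cKO. Its UMIs in the Muc4 cluster were 7 in that library (10.1 CPM, its highest cluster there and the same count as Sox17) and 0 in the library labelled Sox9con, where Sox17 had 31.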
